A study of Ovis aries with 2 samples.

Results

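The miR-10, miR-99/100 and miR-125 miRNAs were examined in extracellular vesicles isolated from the uterine luminal fluid (ULF) of Rambouillet ewes on day 14. A mature miRNA was taken as a member when its precursor was named mir-10a, mir-10b, mir-99a, mir-99b, mir-100, mir-125a or mir-125b, with copy numbers ignored. Of these 7 names 6 were found among the 81 mature miRNAs of the deposited counts, and miR-100 was not listed. The pregnant library was made from vesicles of ewes mated to an intact ram on day 0 and the cyclic library from vesicles of cyclic ewes. Each was 1 library of RNA pooled from 4 ewes, so how ewes differ from each other was not measured. Every ratio compares these 2 libraries, called pregnant and cyclic vesicles below, and not the conditions. For that reason no p-value is given, and all intervals are exact 95% intervals of counting error. The reads carried no molecular identifiers, so that copies of 1 molecule cannot be told from separate molecules, and the intervals leave out this source of error.

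miRNAs are short RNAs that pair with messenger RNAs, mainly through the seed near their 5′ end, and lower the output of those messengers. The miR-10 genes lie inside the Hox clusters, whose transcription factors pattern the body axis and, in the adult female tract, the uterus. miR-99 and miR-100 are relatives of miR-10 with a shifted seed. miR-125 is the vertebrate counterpart of lin-4, the first miRNA described in Caenorhabditis elegans. In mammals miR-99, let-7 and miR-125 genes stand together in clusters. These are miR-99b/let-7e/miR-125a, miR-99a/let-7c/miR-125b and miR-100/let-7a/miR-125b.

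The mature sequences against which the reads were counted are the cattle sequences listed with the counts. They are shown as DNA letters from 5′ to 3′ because the 6 members fall into 3 pairs by seed. The seed, bases 2 to 8, is in capitals.
miR-10a: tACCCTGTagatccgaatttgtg
miR-10b: tACCCTGTagaaccgaatttgtg
miR-99a: aACCCGTAgatccgatcttgt
miR-99b: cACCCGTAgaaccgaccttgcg
miR-125a: tCCCTGAGaccctttaacctgtg
miR-125b: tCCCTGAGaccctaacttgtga
No other listed miRNA shared any of the 3 seeds. With positions counted from 1 at the 5′ end of the first-named sequence, miR-10a and miR-10b differed only by T12A. miR-99a and miR-99b differed by A1C, T11A, T16C and T21C, and miR-99b had 1 base more. miR-125a and miR-125b were identical over their first 13 bases. miR-10a and miR-99a shared the run GTAGATCCGA, which began at base 7 of miR-10a and at base 6 of miR-99a. miR-10b and miR-99b shared the run GTAGAACCGA at the same positions. The a and b forms of both families thus differed in the same letter of a common 10-base run.

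In the RefSeq genes of the Rambouillet assembly ARS-UI_Ramb_v3.0, 4 of the 7 names had a miRNA gene, and 2 of these had Hox genes as neighbours. MIR10A lay within the span of HOXB3, between HOXB5 and HOXB4. MIR10B lay within the span of HOXD4, between HOXD3 and HOXD8. MIR99A and MIR125B had no Hox neighbour, and MIRLET7C was the nearest named gene on one side of MIR99A. By position the term Hox-linked therefore held for the miR-10 genes, whereas miR-99a shares the core run of miR-10a.

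The pregnant library held 119605 reads and the cyclic library 94735. Mature miRNAs took 2809 of the reads in the pregnant library, 2.35%, and 7921 in the cyclic library, 8.36%. The authors required 10 copies, and in the deposited counts this minimum acted on the sum per mature miRNA and not on each sequence. The lowest sum was 10 in both libraries, whereas 14 of the 36 exact-match counts above 0, each the count of 1 sequence, were under 10 and went down to 1. An unlisted miRNA may thus have had as many as 9 counts. Shares and ratios below are relative to the total of mature miRNA counts unless all reads are named. Of the miRNAs that mark epithelium, the tissue lining the uterine lumen, 5 of 7 were listed in pregnant vesicles with 14.5% of the mature counts and 7 of 7 in cyclic vesicles with 15.8%. miR-141 and miR-429 were unlisted in pregnant vesicles, and the others did not move together. The ratios, pregnant over cyclic, of miR-200b (0.653, 0.522 to 0.810) and miR-200a (0.712, 0.543 to 0.924) had intervals below 1. That of miR-200c (1.59, 1.27 to 1.97) lay above 1, and those of miR-31 and miR-205 included 1. Of the stroma and smooth muscle markers 1 of 4, miR-145, was listed in pregnant vesicles with 1.85% and 4 of 4 in cyclic vesicles with 1.89%, so that these shares sum different members. Of the leukocyte markers 1 of 4, miR-342, was listed in pregnant vesicles with 1.46%, and 2 of 4, miR-342 and miR-223, in cyclic vesicles with 1.75%. Here too the sums hold different members. miR-342 alone had 1.05% in cyclic vesicles, and its ratio, pregnant over cyclic, of 1.39 (0.934 to 2.05) could not be told from 1. Of the erythroid markers 1 of 3, miR-451, was listed in both, with 0.427% in pregnant and 0.896% in cyclic vesicles. By the rule for calls given below, the blood cell markers miR-223, unlisted in pregnant and with 56 counts in cyclic vesicles (ratio at most 0.453), and miR-451 (0.477, 0.235 to 0.885) were the 2 of 81 mature miRNAs called lower. The part of these cells in the results below was not tested. In pooled vesicle RNA, fewer vesicles from a cell type and less of a miRNA per vesicle cannot be told apart.

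miR-125a, miR-10a and miR-125b were abundant members in both libraries, and miR-99a, miR-99b and miR-10b were scarce. In the pregnant library miR-125a had 112 counts, miR-10a 101, miR-125b 66, miR-99b 14 and miR-99a 11, while miR-10b was unlisted. In the cyclic library miR-10a had 174 counts, miR-125a 161, miR-125b 142 and miR-99a 28, and miR-10b and miR-99b had 10 each. miR-125a ranked 7th and miR-10a 9th among the mature miRNAs of the pregnant library, against rank 17 for miR-125a and rank 13 for miR-10a in the cyclic library. Some neighbours in this order could not be told apart. In the pregnant library miR-125a was 1.11 times as frequent as miR-10a (0.840 to 1.47) and miR-99b 1.27 times as frequent as miR-99a (0.537 to 3.10). By contrast, miR-10a exceeded miR-125b there by 1.53 times (1.11 to 2.12) and miR-125b exceeded miR-99b by 4.71 times (2.62 to 9.09). In the cyclic library neighbours among the 3 abundant members could not be told apart, with quotients of 1.08 (0.867 to 1.35) for miR-10a over miR-125a and 1.13 (0.899 to 1.43) for miR-125a over miR-125b. There miR-125b was 5.07 times as frequent as miR-99a (3.36 to 7.90) and miR-99a 2.80 times as frequent as miR-10b (1.32 to 6.46). Both libraries thus had a step between the abundant and the scarce members.

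**Figure D1:**
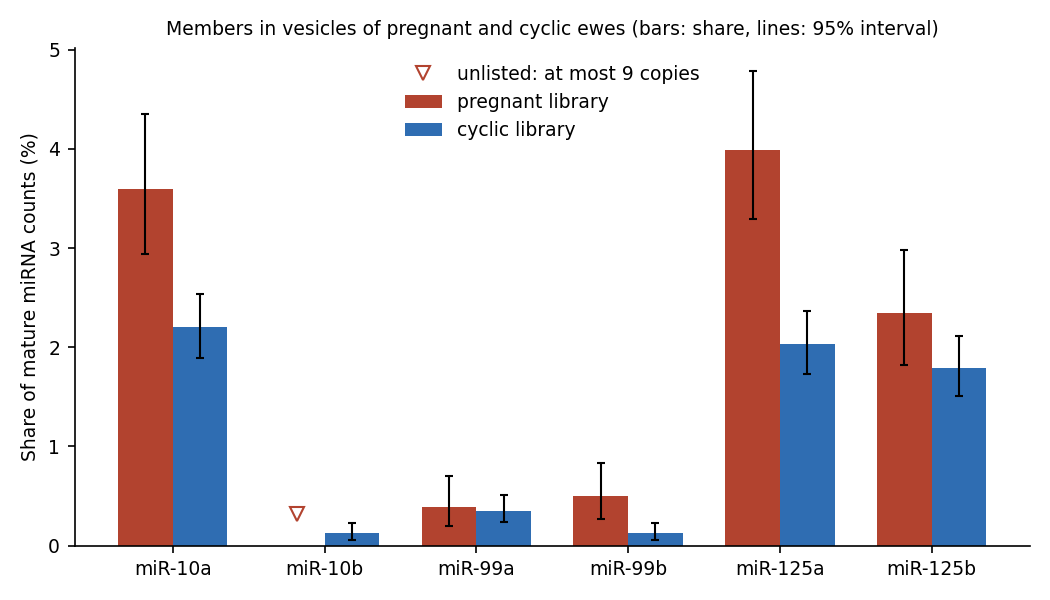
Share of the mature miRNA counts (%) of each member in the pregnant library (left bar) and the cyclic library (right bar), 1 pooled library each, with exact 95% intervals as lines. miR-125a reached 3.99% in pregnant and 2.03% in cyclic vesicles, and the open triangle marks miR-10b, unlisted in the pregnant library, at its bound of 9 copies (0.320%).

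Of the miR-125 family, which in mammals acts on differentiation and on apoptosis genes, miR-125a took 3.99% (3.29 to 4.78%) of the mature counts in vesicles of pregnant ewes and 2.03% (1.73 to 2.37%) in vesicles of cyclic ewes. Its ratio, pregnant over cyclic vesicles, was 1.96 (1.53 to 2.51). The interval lay above 1 and included 2-fold, while the ratio itself was just under 2-fold. miR-125b had 2.35% (1.82 to 2.98%) in pregnant and 1.79% (1.51 to 2.11%) in cyclic vesicles. This ratio of 1.31 had an interval, 0.964 to 1.77, that included 1. The same seed was therefore carried by a member with an interval above 1 and by a member whose difference was not detectable at this depth.

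miR-10a, which in mammals is expressed with the neighbouring Hox genes, took 3.60% (2.94 to 4.35%) of the mature counts in pregnant and 2.20% (1.89 to 2.54%) in cyclic vesicles. Its ratio was 1.64 (1.27 to 2.10). At an equal share, the 174 cyclic counts would have given 61.7 pregnant counts, against the 101 found. miR-10b had 10 counts in the cyclic library, 0.126% (0.0606 to 0.232%), and at most 9 in the pregnant library. An equal share would have given 3.55 pregnant counts, under the minimum for listing. Its ratio of at most 2.54 says nothing of a direction, and 27 of the 81 mature miRNAs, 33.3%, were likewise listed in the cyclic library only. The reverse, a listing in the pregnant library only, held for 0 of the 6 members and for 1.23% of all mature miRNAs.

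miR-99b, which in human cells represses MTOR, a kinase of cell growth, had 14 counts in the pregnant library, 0.498% (0.273 to 0.835%), against 10 in the cyclic library, 0.126% (0.0606 to 0.232%). It had the highest ratio of the 53 miRNAs listed in both libraries, 3.95 (1.63 to 9.93). The listing minimum fixed this in part, since at 10 cyclic counts even the lowest count that could be listed, 10, would have given 2.82 (1.05 to 7.55). miR-99a had 11 counts in the pregnant library, 0.392% (0.196 to 0.700%), and 28 in the cyclic library, 0.353% (0.235 to 0.510%). Its ratio of 1.11 (0.498 to 2.30) could not be told from 1, and edgeR's TMM scaling (0.995) and DESeq2's size factors (0.948) put it just under 1. With 10 pregnant counts, the lowest that could be listed, it would have been 1.01. At 28 cyclic counts a listed miR-99a could therefore not show a ratio below 1 relative to mature counts.

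A call of higher or lower required an interval that excluded 1 and a ratio of at least 2-fold. Of the 6 members 1, miR-99b, was called higher, against 6.17% of the 81 mature miRNAs, and none was called lower, against 2.47%. At its 10 cyclic counts even 10 pregnant counts would have met this rule (2.82, 1.05 to 7.55). The listing minimum thus fixed this call for a listed miR-99b, and the call is no separate result. Intervals lay above 1 for miR-125a, miR-10a and miR-99b, 3 of the 6 members, against 13.6% of all mature miRNAs. The interval of miR-99b was fixed to lie above 1 in the same way. None of the 6 had an interval below 1, against 7.41%. All 5 members listed in both libraries had a ratio above 1, as had 60.4% of the 53 miRNAs listed in both. For miR-99a and miR-99b the listing minimum fixed this direction on this scale. At their cyclic counts, 10 pregnant counts would have given 1.01 for miR-99a and 2.82 for miR-99b. The median log2 ratio of the 5 members was 0.71, whereas that of the 53 miRNAs was 0.22. With so few members these shares are a description. The direction of miR-99a in this count turned under TMM and DESeq2's size factors, as given above.

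**Figure D2:**
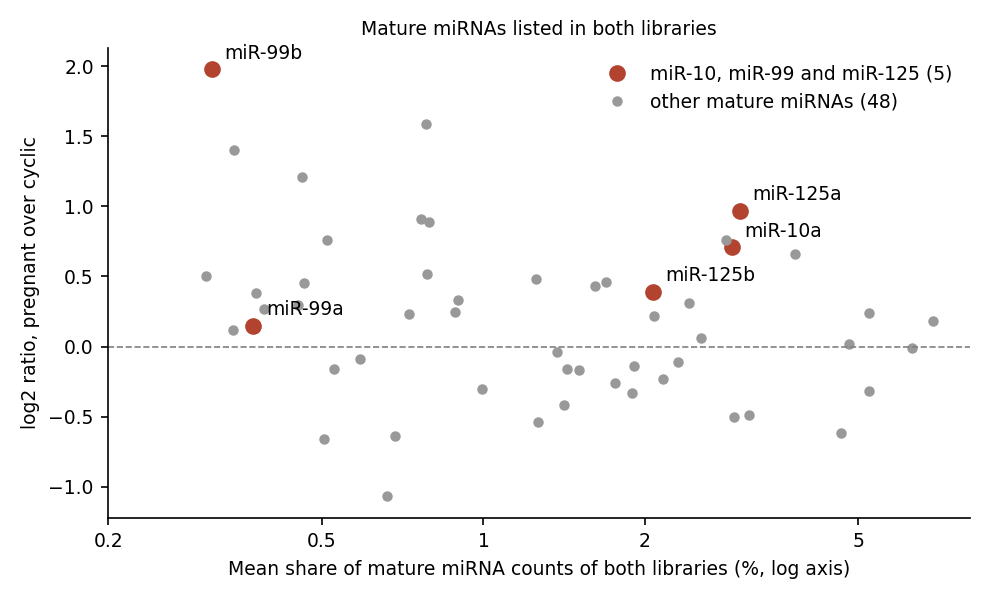
Log2 ratio, pregnant over cyclic vesicles, against the mean share of mature miRNA counts (%, log axis) for the 53 miRNAs listed in both libraries, with the 5 members in red and the other 48 in grey. The members lie between 0.15 for miR-99a and 1.98 for miR-99b, and miR-125a (0.97) and miR-10a (0.71) lie above the median of the 53 miRNAs (0.22).

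Added together, the 5 members listed in both libraries had 304 counts in the pregnant library, 10.8% (9.70 to 12.0%) of its mature counts, and 515 in the cyclic library, 6.50% (5.97 to 7.07%). The ratio was 1.66 (1.44 to 1.92). Leaving out any single member, a setting chosen after the data were examined, gave ratios from 1.53 without miR-125a to 1.80 without miR-125b. The group was also higher relative to annotated reads and with TMM and DESeq2's size factors, but the direction turned relative to all reads. Relative to all reads of the library the group took 0.254% in pregnant and 0.544% in cyclic vesicles, a ratio of 0.468 (0.404 to 0.540), so that it was lower in the pregnant library on that scale. miR-125a then had 936 counts per 1000000 reads in pregnant and 1699 in cyclic vesicles. miR-10a had 844 in pregnant and 1837 in cyclic vesicles, and miR-125b 552 in pregnant and 1499 in cyclic vesicles. miR-99b could not be told from equality on this scale, with 117 counts per 1000000 reads in pregnant and 106 in cyclic vesicles and a ratio of 1.11 (0.458 to 2.79). It was the only miRNA of the 53 with a ratio above 1 relative to all reads. Changing to all reads moves every log2 ratio by -1.83, TMM by -0.16 and DESeq2's size factors by -0.22, and the order of the ratios is the same on each scale.

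**Figure D3:**
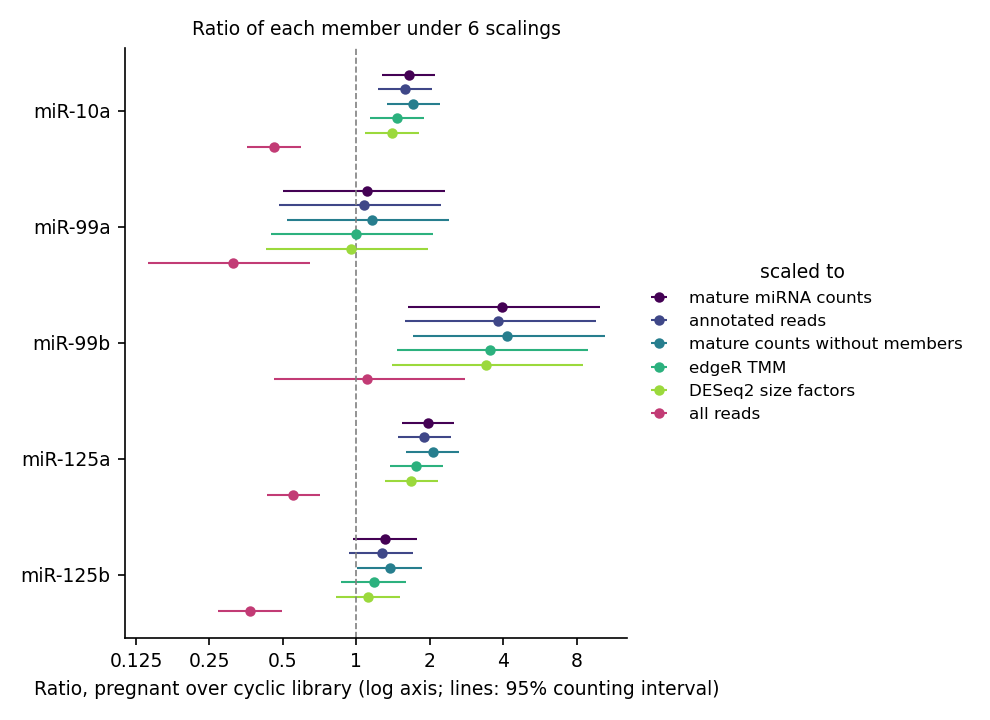
Ratio of pregnant over cyclic vesicles (log axis) for the 5 members listed in both, under 6 scalings given by colour, with exact 95% counting intervals as lines. For miR-10a and miR-125a the intervals lie above 1 under 5 scalings and below 1 relative to all reads, where the ratios were 0.460 and 0.551.

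The composition of the group does not depend on the scaling. Of its counts miR-125a and miR-125b together made up 58.6% (52.8 to 64.1%) in pregnant and 58.8% (54.4 to 63.1%) in cyclic vesicles. miR-10a made up 33.2% (28.0 to 38.8%) in pregnant and 33.8% (29.7 to 38.1%) in cyclic vesicles. The pair miR-99a and miR-99b made up 8.22% (5.39 to 11.9%) in pregnant and 7.38% (5.27 to 9.99%) in cyclic vesicles. By seed, then, no difference in the makeup of the group was detectable at this depth, with odds ratios of 0.988 (0.734 to 1.33) for miR-125, 0.975 (0.713 to 1.33) for miR-10a and 1.12 (0.636 to 1.96) for miR-99. By cluster the intervals of the odds ratios excluded 1. miR-99b and miR-125a, the partners of the miR-99b cluster, made up 41.4% (35.9 to 47.2%) of the group in pregnant and 33.2% (29.1 to 37.5%) in cyclic vesicles. miR-99a and miR-125b made up 25.3% (20.5 to 30.6%) in pregnant and 33.0% (29.0 to 37.3%) in cyclic vesicles. The odds ratios were 1.42 (1.05 to 1.93) for the first pair and 0.688 (0.494 to 0.955) for the second. For miR-125a alone (1.28, 0.940 to 1.75) and miR-125b alone (0.728, 0.513 to 1.03) the intervals included 1. Those of the pairs thus excluded 1 only with the scarce miR-99b and miR-99a added, whose ratios the listing minimum limits as given above.

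Set directly against each other, miR-99b and miR-125a had 126 counts and miR-99a and miR-125b 77 in the pregnant library, a quotient of 1.64. In the cyclic library miR-99b and miR-125a had 171 counts and miR-99a and miR-125b 170, a quotient of 1.01. The quotient in the pregnant over that in the cyclic library was 1.63 (1.12 to 2.36). With the let-7 partners of the clusters added, let-7e on one side and let-7c on the other, the quotients were 1.29 in pregnant and 0.800 in cyclic vesicles and their ratio 1.61 (1.18 to 2.20). Both same-seed pairs had intervals above 1. miR-125a over miR-125b was 1.70 in pregnant and 1.13 in cyclic vesicles, a ratio of 1.5 with a lower limit close to 1 (1.01 to 2.23). miR-99b over miR-99a was 1.27 in pregnant and 0.357 in cyclic vesicles, a ratio of 3.56 (1.08 to 11.9), and rests on 10 to 28 counts a library. Since miR-99b stood at 10 cyclic counts, the lowest that could be listed, the listing minimum fixed the direction at these miR-99a counts. This pair is therefore no separate support for the cluster quotient. Without miR-99a and miR-99b the cluster quotient is that of miR-125a over miR-125b alone, with its lower limit of 1.01. That setting was chosen after the data were examined. let-7e over let-7c, 0.579 in pregnant and 0.482 in cyclic vesicles, gave 1.20 (0.612 to 2.32), which could not be told from 1. Nor could miR-125b over miR-99a, the partners on the other side, with 1.18 (0.531 to 2.80), or miR-125a over miR-10a with 1.20 (0.837 to 1.72). In all 11 such quotients were computed, and their intervals are not adjusted for that number. miR-125b comes from 2 precursors, so its counts cannot be divided between the miR-99a and the miR-100 cluster.

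**Figure D4:**
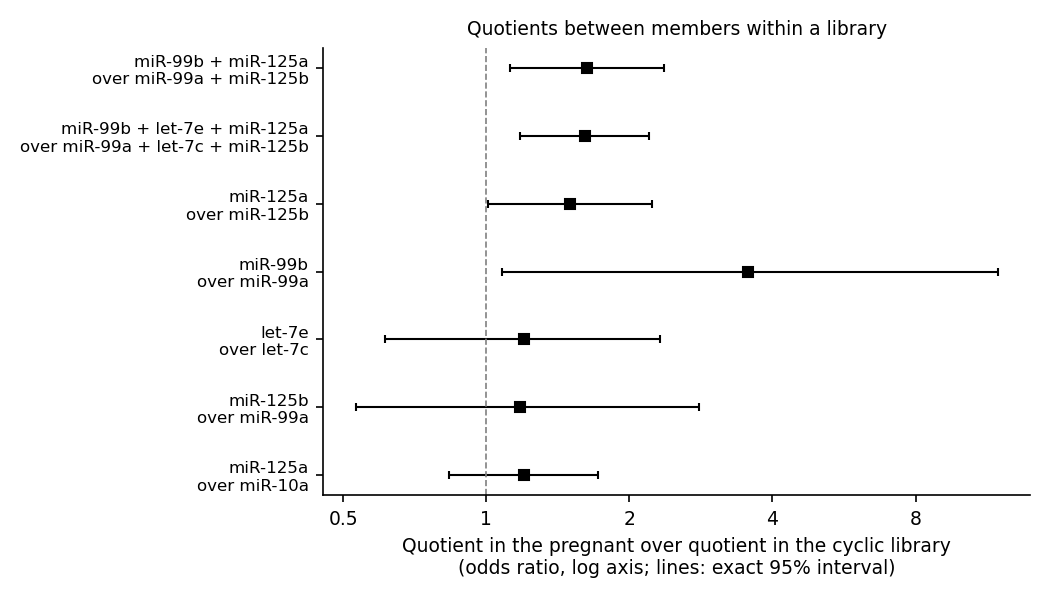
Quotient between members in the pregnant library over the same quotient in the cyclic library (odds ratio, log axis), with exact 95% intervals as lines, for 7 of the 11 quotients. The miR-99b/miR-125a side over the miR-99a/miR-125b side lies at 1.63, and the interval of let-7e over let-7c includes 1.

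The let-7 partners of the clusters repress genes of growth and development in mammals, and none of them had an interval that excluded 1. let-7a, the partner of miR-100, had 206 counts in pregnant and 512 in cyclic vesicles, a ratio of 1.13 (0.960 to 1.34). It is listed under the precursors let-7a-1, let-7a-2 and let-7a-3, so its counts cannot be assigned to the miR-100 cluster alone. let-7e had 22 counts in pregnant and 53 in cyclic vesicles, a ratio of 1.17 (0.678 to 1.96), and let-7c 38 in pregnant and 110 in cyclic vesicles, a ratio of 0.974 (0.655 to 1.42). None of these 3 was called, and none of the other Hox-linked miRNAs, miR-196a, miR-196b and miR-615, was listed in either library. The miRNAs nearest to miR-10a in log2 ratio, over these 2 libraries, were miR-191 at 1.69 and miR-200c at 1.59. Those nearest to miR-125a were miR-24 at 1.88 and miR-30c at 1.86.

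The reads behind the members differed in how they matched. Of the miR-125b counts 49 of 66, 74.2% (62.0 to 84.2%), were exact matches in the pregnant library and 104 of 142, 73.2% (65.2 to 80.3%), in the cyclic library. The other 5 members had no exact match in either library. For miR-125a this was 0 of 112 counts in the pregnant library (upper limit 3.24%) and 0 of 161 in the cyclic library (2.27%), and for miR-10a 0 of 101 in the pregnant (3.59%) and 0 of 174 in the cyclic library (2.10%). Lack of exact matches was common, since 53 of the 75 other mature miRNAs had none, and exact matches made up 10.3% of the other counts in pregnant and 9.09% in cyclic vesicles. Assignment to precursors went with the number of precursors of each entry. miR-10a, miR-10b, miR-99a, miR-99b and miR-125a have 1 precursor each, and all their counts came from reads assigned to 1 precursor only. For miR-125b, which has 2 precursors, this held for 1 of 66 counts in the pregnant library and for 2 of 142 in the cyclic library. These shares therefore do not compare how well the reads were assigned. The counts do not show whether a read that was not exact differed from its entry in a base or in length. Whether miR-10a and miR-10b, which are 1 base apart, or miR-99a and its relative miR-100 took up each other's reads was not tested. With reads assigned to 1 precursor only, which leaves 1 count of miR-125b in the pregnant library, the cluster quotient was 1.84 with an interval, 0.873 to 4.11, that included 1.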

How the data were processed

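Small RNA from vesicles precipitated from ULF was sequenced by the authors on an Ion Torrent instrument, as 1 pooled library of pregnant and 1 of cyclic ewes. CLC Genomics Workbench, version not given in the sources used here, kept reads between 15 and 55 bp, matched these to the cattle entries of miRBase with a stated limit of under 2 mismatches, required at least 10 copies and added up the reads belonging to each mature miRNA. The deposited values are raw read counts of each mature miRNA in whole numbers, beside which stand the exact matches and the reads with a single precursor. Totals of all and annotated reads came from the deposited annotation reports. Exact-match counts of single sequences under 10 are listed, while no grouped count is, so the minimum acted on the grouped counts and an unlisted miRNA was set at 9 copies as a bound. A fold change column of the authors was not used, nor were 6 columns of values that belong to none of the samples analysed here.

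Each count was divided by the mature total of its library (2809 pregnant and 7921 cyclic counts). Ratios carry an exact conditional binomial interval, shares a Clopper-Pearson interval and quotients an exact conditional odds ratio interval, at 95%. Calls were made over all 81 mature miRNAs. Python 3.11.15, SciPy 1.17.1, pandas 2.3.3, NumPy 2.4.6 and matplotlib 3.10.9 were used, and for scaling only edgeR 4.0.16 and DESeq2 1.42.0 in R 4.3.3, over the 53 miRNAs in both libraries. The intervals were tested on simulated data that held counting error only. Copies of 1 molecule, spread between ewes and the listing minimum were not simulated. Members, lists and quotients were chosen with earlier results of these data known. Those named are all members, their let-7 partners, other Hox-linked miRNAs and, for the 2 most abundant members, the 2 other miRNAs nearest in log2 ratio. Alternatives were other scalings, exact or single-precursor reads, minimums of 20 and 50 counts and the second deposited table. Sheep gene names and neighbours came from RefSeq. No genome build is named for the counts, so no coordinates are given.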

Additional observations from a re-analysis of the deposited data

How the results depend on the processing

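Relative to all reads the group ratio was 0.468 and the ratios of miR-10a (0.460) and miR-125a (0.551) were below 1, and the number of members called higher and the number with an interval above 1 were both 0, because that scaling moves every log2 ratio by -1.83. With DESeq2's size factors the group ratio was 1.42, outside the interval of the reported value. The number of members called higher was 2 with mature counts without the members, where miR-125a reached 2.05 and the interval of miR-125b (1.37, 1.01 to 1.85) lay above 1, and 0 with at least 20 or at least 50 counts in either library, which remove miR-99b. Of 87 recomputed values 75 stayed within the interval of the reported value or, for numbers of members, within 1.5 times of it. Some of these could change little or not at all. The second deposited table and the member ratios under minimums of 20 and 50 counts used the same counts. So did the single-precursor ratios of members with 1 precursor. A value could also stay by this measure while its own interval came to include 1. The cluster quotient with single-precursor reads did so (1.84, 0.873 to 4.11). The second deposited table held the same counts for all 81 miRNAs. Exact matches alone gave a ratio for miR-125b only (1.19, 0.827 to 1.68) and no quotient. No paired analysis was possible because each condition has 1 library, and no replicate could be left out. At 9 copies as the bound, at least 52 cyclic counts were needed for an interval below 1, which miR-10b did not have. Setting miR-100 at 9 copies in both libraries gave a cluster quotient of 1.53 (1.07 to 2.20). That is 1 setting and not a limit, since miR-100 may have had any count up to 9 in either library.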

Other observations

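Within the miR-99b/let-7e/miR-125a cluster 1 of 3 quotients between members had a ratio whose interval excluded 1. In vesicles of pregnant ewes miR-125a had 8.0 times the counts of miR-99b and in vesicles of cyclic ewes 16.1 times, a quotient ratio of 0.497 (0.191 to 1.26) that included 1. let-7e had 1.57 times the counts of miR-99b in pregnant and 5.30 times in cyclic vesicles, a quotient ratio of 0.296 (0.102 to 0.852), which is not adjusted for the 11 quotients computed and rests on miR-99b at 10 cyclic counts, the lowest count listed. miR-125a over let-7e was 5.09 in pregnant and 3.04 in cyclic vesicles (1.68, 0.938 to 3.06). Each of these involves a member with 53 or fewer counts in both libraries. On the other side, miR-125b had 6.0 times the counts of miR-99a in pregnant and 5.07 times in cyclic vesicles. miR-10a over miR-125b, which belong to no common cluster, was 1.53 in pregnant and 1.23 in cyclic vesicles (1.25, 0.839 to 1.86).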
